A study of Mus musculus with 12 samples.

Results

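Muscle of mice heterozygous for the P32L allele of Gmppb was compared with that of wild-type (WT) mice by RNA sequencing of the gastrocnemius, the large calf muscle. The comparison used 3 P32L and 3 WT mice, 6 of the 12 libraries of the series, all aged 32 weeks and kept on a standard diet. The other libraries came from 3 KO mice, heterozygous for a Cas9-made deletion of 303 bp that the labels place in exons 2 and 3 of Gmppb, and from 3 R287Q mice, homozygous for a change of base 860 (arginine to glutamine at residue 287). Expression was described for the 9152 of 30488 gene symbols whose mean over the 12 libraries was at least 1 TPM. TPM divides reads by transcript length and scales every library to the same sum. The alleles are germline changes present in every cell of the animal, and the labels give no sex, litter, number of founder lines, feeding state or hour of collection. RNA came from whole muscle, so a fall in a transcript can mean fewer cells of a type or less RNA per cell, and these cannot be told apart.

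Gmppb encodes the catalytic subunit of GDP-mannose pyrophosphorylase, the enzyme that joins mannose 1-phosphate to GTP to make GDP-mannose. GDP-mannose, and the dolichol-phosphate-mannose made from it, supply the mannose that begins the O-linked sugar chain of alpha-dystroglycan and that builds N-linked glycans. Alpha-dystroglycan ties the muscle fibre membrane to laminin through this chain, and human mutations in GMPPB cause muscular dystrophies and a myasthenic syndrome. The P32L allele changes a single base of the coding sequence. The stretch of the Gmppb reference sequence around it (coding bases 65 to 125, counted from the A of the start codon; chr9:108049581-108049641, plus strand, mm10) is shown because it is the only engineered difference between the groups, with codon 32 in capitals.
Gmppb coding bases: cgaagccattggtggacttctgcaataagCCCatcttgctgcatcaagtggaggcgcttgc
The labels put the substitution at base 95, which is C95T here and turns codon CCC into CTC, proline into leucine per the labels. This base lies at 108049611 in exon 2 of 10 in the GENCODE M21 transcript Gmppb-201.

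Gmppb itself (chromosome 9, 108049242 to 108052801, plus strand) measured 4.42, 3.02 and 3.61 TPM in WT muscle, and P32L muscle had 3.57, 3.55 and 3.26 TPM. The groups overlapped. Their difference on the log2 scale was -0.06 (SE 0.12, limma adjusted p = 0.999; exact two-sided permutation p = 0.7, where 0.1 is the smallest value that 3 against 3 mice allow). Gene-level TPM sums both alleles and does not show the base, so it does not check the label.

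The profiles of these libraries were alike, and the values carried an imprint of the replicate number. Profiles correlated at 0.984 to 0.992 within groups and 0.974 to 0.991 between them, over genes, which are not independent. Transcripts of the mitochondrial genome took 53.0% to 58.4% of each library, and 7 nuclear copies of them another 19.6% to 20.95%. Genes of the contractile apparatus and glycolysis that mark muscle fibres summed to between 26461 and 34165 TPM in WT and between 26883 and 33036 TPM in P32L, so the labelled tissue was borne out in all 6 libraries. Sequencing depth is unknown, because TPM keeps no read total. In 8847 genes (96.7%), libraries with the same number (WT-1, P32L-1, KO-1 and R287Q-1, and so on) had a mean so close to that of the other numbers that replicate number held under 1% of the variation within groups. The median was 0.0373%, where independent libraries would average 25%. The name of the deposited table carries the abbreviation adj, which no source used here explains, so whether the TPM values given per mouse are as measured or were adjusted is not stated. What such a step would do to group means was not tested. Libraries that share a number are not independent in these values, and 6 rather than 8 residual degrees of freedom remain once the number enters the fit as a block.

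Of the 9152 genes, 4 (0.0437%) passed an adjusted p of 0.05 in P32L against WT. Per1, Rpl26-ps6 and Gm17024 rose and Aplnr fell (limma with an intensity trend on log2(TPM + 1), all 12 libraries, Benjamini-Hochberg over 9152 genes). With replicate number as a block 0 genes passed, the lowest adjusted p was 0.225, and 340 genes had an unadjusted p under 0.05, against 597 without the block. The 4 calls are therefore given with both values. Other adjusted p values below come from the fit without the block unless stated. Leaving out 1 of the 6 libraries at a time left 0 or 1 genes called (Rpl26-ps6 without P32L-2, and Gm42417 without WT-2), while median-of-ratios scaling gave 23 calls and quantile normalization 28. Fold changes, which are differences of mean log2(TPM + 1), had a median of 0.01 over all genes and ran from -0.24 at the 5th to 0.29 at the 95th percentile. They exceeded 1 in 33 genes and lay under -1 in 11. The 3 P32L mice were all above the 3 WT mice in 509 genes (5.56%) and all below in 334 (3.65%). These shares are the background for the counts of gene groups below, which carry no test of their own. With 0.0437% of genes called, the absence of a call in a short list says little about that list.

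**Figure D1:**
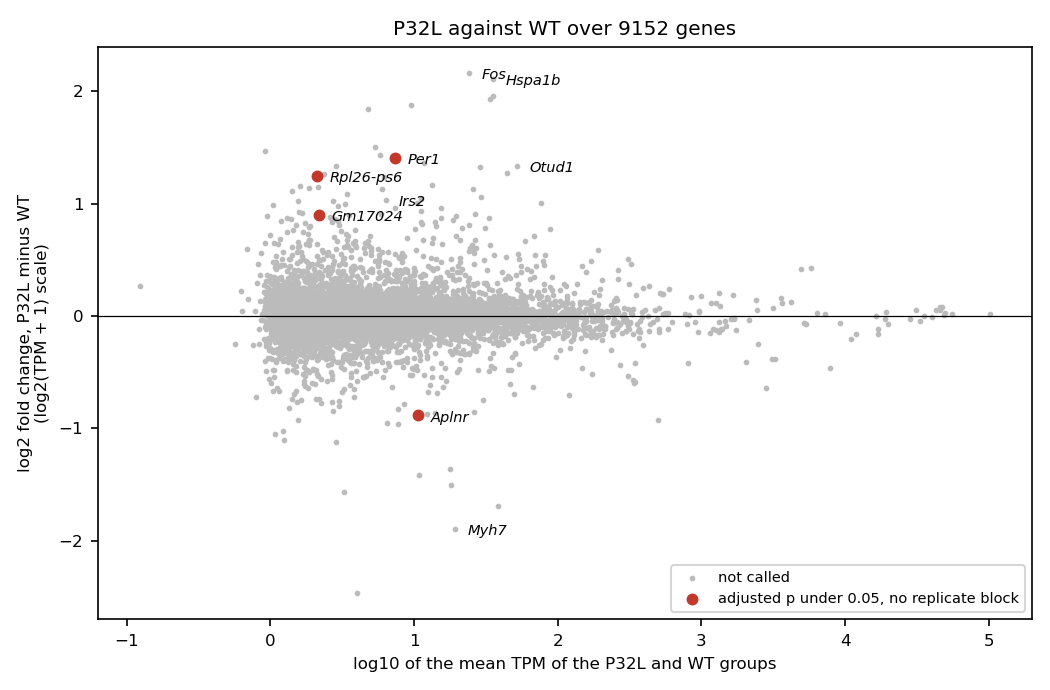
Each point is 1 of the 9152 genes, placed by its mean TPM in the P32L and WT groups (horizontal axis, log10) and its log2 fold change, P32L minus WT, on the log2(TPM + 1) scale (vertical axis). The 4 called genes are in red; Per1, Rpl26-ps6 and Gm17024 lie above 0 and Aplnr below, while Fos at 2.16, Hspa1b at 2.11 and Myh7 at -1.89 lie farther from 0 without passing.

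Per1 encodes Period 1, a repressor in the negative limb of the circadian clock whose transcription also answers to glucocorticoids and to cyclic AMP. It was at 4.11, 3.64 and 3.05 TPM in WT and 12.2, 10.6 and 10.8 TPM in P32L. The lowest P32L mouse thus had more than any WT mouse, and the means were 3.60 ± 0.528 and 11.2 ± 0.846 TPM (SD, n = 3). The step on the log2 scale was 1.41 (SE 0.18, limma adjusted p = 0.0308, with the replicate block adjusted p = 0.225). Of the other lines, KO had 3.35, 5.75 and 6.68 TPM and R287Q 8.93, 7.22 and 6.72 TPM, so none of their mice reached the P32L range. Per1 lies on chromosome 11 (69095217 to 69109960, plus strand).

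The clock repressors, Per1 included, did not move as a block. Of 10 listed, 9 were measured, with a median log2 fold change of 0.19. In P32L 7 had a higher mean and 2 a lower one, with 5 above and 1 below without overlap. Per1 itself is counted among the 7 and among the 5. Ciart, which binds and inhibits the CLOCK and BMAL1 pair, was at 1.25, 2.06 and 1.60 TPM in WT and 3.58, 3.55 and 5.60 TPM in P32L (0.98, adjusted p = 0.217). Per2, the partner of Per1, was at 1.16, 0.448 and 0.792 TPM against 1.44, 1.86 and 1.63 TPM (0.57, adjusted p = 0.217). Both sets were clear of each other, as was Nr1d2, a nuclear receptor that represses Bmal1, by a smaller step (12.5, 11.99 and 10.9 against 14.1, 14.0 and 14.3 TPM). Bhlhe41, which competes for the same DNA sites as CLOCK, went the other way, from 29.1, 24.9 and 18.5 TPM in WT to 16.9, 15.8 and 17.9 TPM in P32L (-0.47, adjusted p = 0.510). Of the activators and the output factors that bind D-boxes, 4 of 6 had a higher mean and 2 a lower one (median 0.10). Dbp was the member without overlap, at 22.8, 26.4 and 27.0 TPM in WT and 36.1, 32.6 and 40.5 TPM in P32L (0.50, adjusted p = 0.318), while Clock itself had a log2 fold change of -0.08.

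CLOCK and BMAL1 bind the E-box, CACGTG, and the Per1 and Ciart promoters carry it within 250 bases before the start. They are shown with the E-box in capitals (RefSeq, GRCm38.p6; Per1 chr11:69098699-69098948, plus strand, the start site of 2 that holds an E-box; Ciart chr3:95882229-95882478, minus strand).
Per1: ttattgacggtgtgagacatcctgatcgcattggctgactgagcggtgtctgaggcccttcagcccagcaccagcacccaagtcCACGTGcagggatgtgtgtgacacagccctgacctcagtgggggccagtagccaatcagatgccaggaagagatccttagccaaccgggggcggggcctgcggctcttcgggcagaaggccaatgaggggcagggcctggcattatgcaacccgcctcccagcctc
Ciart: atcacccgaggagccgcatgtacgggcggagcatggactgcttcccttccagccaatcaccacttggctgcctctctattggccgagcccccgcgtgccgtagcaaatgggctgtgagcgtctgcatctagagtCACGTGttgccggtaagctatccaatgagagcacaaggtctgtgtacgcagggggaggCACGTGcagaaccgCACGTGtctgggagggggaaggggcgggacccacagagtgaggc
Per1 has 1 E-box, beginning 166 bases before the start, and Ciart has 3. Of 32851 promoter windows of this length, 6.02% hold an E-box; it reads the same on both strands. Of the clock repressors, 7 have a promoter in the table, and Per1, Ciart and Bhlhe41 hold the motif, so it is present in genes that were higher and in one that was lower. The D-box, TTATGTAA on either strand (0.819% of promoters), is in Per3 among them. The glucocorticoid receptor element, AGAACA and TGTTCT with any 3 bases between (0.00913%), is in none of the 7. These are matches of letters and not measured binding.

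Aplnr encodes the receptor for apelin and is found in vascular endothelium. It was at 14.2, 13.7 and 14.4 TPM in WT and 7.81, 7.24 and 6.53 TPM in P32L, so every P32L mouse had less than any WT mouse. This was a log2 difference of -0.88 (SE 0.12, limma adjusted p = 0.0418, with the replicate block adjusted p = 0.309). KO mice had 10.2, 7.85 and 9.54 TPM and R287Q mice 9.81, 13.8 and 12.4 TPM. Aplnr lies on chromosome 2 (85136225 to 85139923, plus strand).

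Other endothelial genes followed in part. Of 17 listed markers, Aplnr included, 14 were measured, 10 with a lower mean and 4 with a higher one. Of these 4 lay below without overlap, Aplnr among them (list median -0.13). Next to Aplnr these were Clec14a, a lectin of the vessel wall (6.83, 5.80 and 6.63 TPM in WT, 4.72, 4.92 and 4.29 TPM in P32L; -0.39, adjusted p = 0.139), Kdr, the main receptor for vascular endothelial growth factor (6.75, 4.86 and 5.36 against 3.96, 3.56 and 3.94 TPM; -0.46, adjusted p = 0.286), and Cdh5, the cadherin of endothelial junctions (-0.20, adjusted p = 0.894). Pecam1, Tie1, Eng and Flt1, which also define endothelium, had log2 fold changes of -0.05, -0.02, -0.08 and 0.07. Robo4, another listed marker, went the other way from Aplnr, at 0.26, the highest of the list, with overlap. The summed endothelial level, Aplnr included, was 147.5, 121.7 and 115.6 TPM in WT and 110.05, 106.9 and 94.6 TPM in P32L. Between WT-3 and P32L-1, the closest pair, this sum differed by less than Aplnr alone. The sum therefore does not show the other markers apart from WT, and their part in the Aplnr result was not tested. Among genes of smooth muscle and pericytes, the cells around the vessel, 8 of 11 had a lower mean and 3 lay below without overlap. These 3 were the potassium channel gene Kcnj8 (-0.37, adjusted p = 0.449), Pdgfrb (-0.24) and Rgs5 (-0.23).

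Rpl26-ps6 is a reverse-transcribed copy of Rpl26, a gene of the large ribosomal subunit (chromosome 9, 43217122 to 43217555, plus strand), in the gap between Pou2f3 and Oaf and 64.8 Mb from Gmppb. Its level was 0.780, 0.918 and 0.795 TPM in WT and 4.24, 2.74 and 3.17 TPM in P32L. The groups were well apart, by 1.25 on the log2 scale (SE 0.15, limma adjusted p = 0.0306, with the replicate block adjusted p = 0.225). R287Q mice were also above WT, at 1.94, 2.29 and 1.64 TPM, and KO mice spread around WT (0.394, 0.634 and 0.995 TPM). Over its 434 bases the pseudogene is 90.3% identical to Rpl26, with a longest shared run of 29 bases and none of its 31-base words in common. Rpl26 was at 82.3, 101 and 100.4 TPM in WT and 107, 97.1 and 92.4 TPM in P32L (0.07, adjusted p = 0.999), so the parent did not differ beyond its spread. Reads with mismatches could still be split between them. The pseudogenes of ribosomal proteins as a class went both ways. Of 224 listed, Rpl26-ps6 included, 87 were measured, 52 with a higher mean and 35 with a lower one. Without overlap 6 lay above, Rpl26-ps6 among them, and 5 below.

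Gm17024 is a non-coding transcript inside an intron of Ifrd1 and on its strand (chromosome 12, 40209487 to 40211073, minus strand). It was at 1.05, 1.41 and 1.18 TPM in WT and 2.67, 3.02 and 3.73 TPM in P32L, again without overlap (0.90, SE 0.12, limma adjusted p = 0.0308, with the replicate block adjusted p = 0.225). Ifrd1, whose unspliced RNA contains this stretch, was at 4.40, 3.23 and 3.68 TPM in WT and 3.56, 3.61 and 2.86 TPM in P32L (-0.13). Its spliced transcripts share none of the 31-base words of Gm17024.

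**Figure D2:**
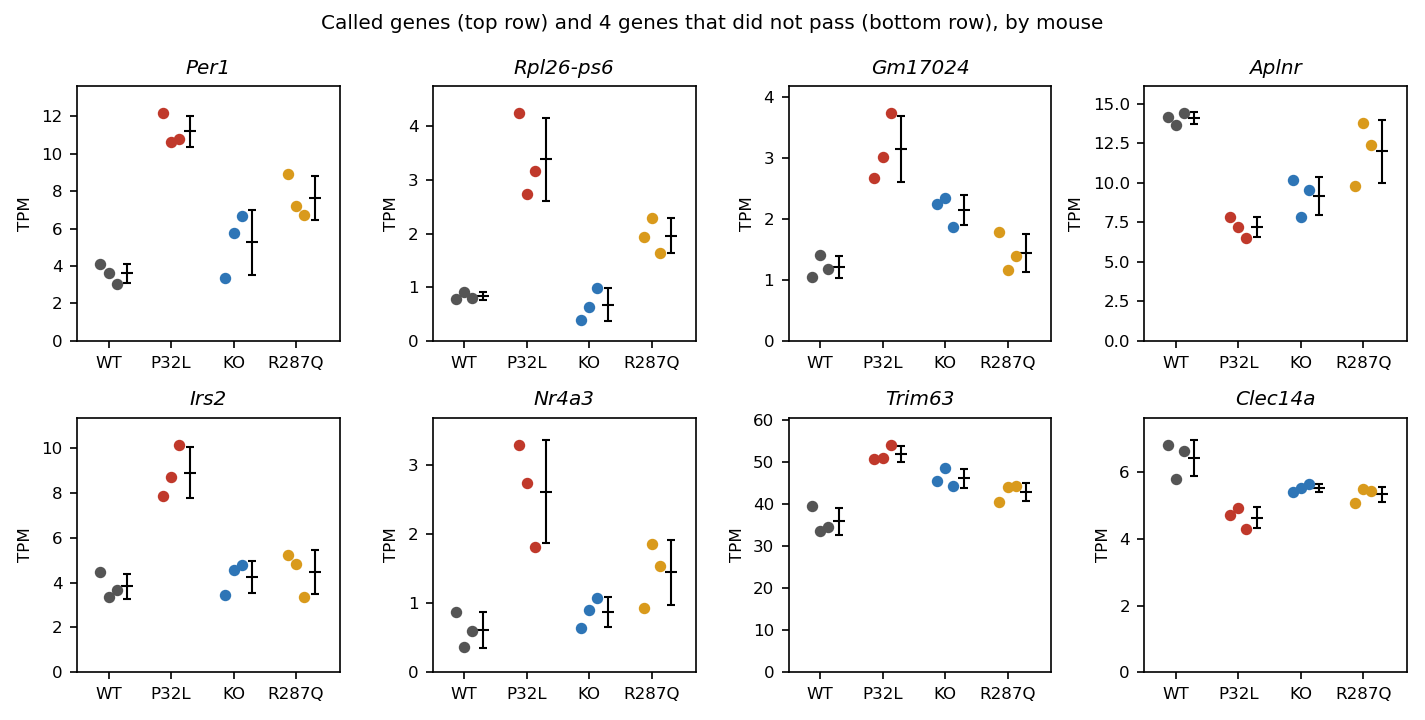
Points are TPM per mouse, with the mean and SD of each group of 3 beside them, for the 4 called genes (top row) and for Irs2, Nr4a3, Trim63 and Clec14a, which did not pass (bottom row). Per1 in P32L lies between 10.6 and 12.2 TPM and in WT between 3.05 and 4.11 TPM; Aplnr lies between 6.53 and 7.81 TPM in P32L and between 13.7 and 14.4 TPM in WT.

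In the fit without a block, genes of insulin signalling, of protein breakdown and of the immediate-early response lay just outside the threshold. With the replicate block they did not lie near it. The limma adjusted p was then 0.324 for Irs2, 0.615 for Trim63 and 0.324 for Nr4a3. Irs2, the docking protein through which the insulin receptor signals, was at 4.45, 3.36 and 3.69 TPM in WT and 7.87, 8.68 and 10.1 TPM in P32L (1.03, SE 0.15, adjusted p = 0.0505). KO and R287Q mice lay between 3.35 and 5.23 TPM, so the 3 P32L mice were the highest of all 12. Trim63, which encodes the ubiquitin ligase MuRF1 of the sarcomere, was at 39.6, 33.5 and 34.6 TPM in WT and 50.7, 51.1 and 54.1 TPM in P32L (0.52, SE 0.09, adjusted p = 0.0862). Here too no P32L mouse overlapped any other of the 12. Nr4a3, an orphan nuclear receptor induced by exercise and adrenergic signals, was at 0.881, 0.365 and 0.596 TPM against 3.30, 2.74 and 1.82 TPM (1.16, adjusted p = 0.0759).

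The next genes on the higher side were picked by p among those without overlap and with no predicted-model symbol. Their limma adjusted p lay between 0.127 and 0.185. With the replicate block it was between 0.615 and 0.687. Socs3, a feedback inhibitor of cytokine receptors, was at 2.31, 2.29 and 3.19 TPM in WT and 12.97, 8.52 and 5.68 TPM in P32L (1.43). The deubiquitinase gene Otud1 was at 36.9, 22.9 and 28.5 TPM against 67.9, 72.6 and 82.9 TPM (1.33). The zinc-finger factor gene Klf6 stood at 16.2, 14.7 and 15.7 TPM against 31.8, 26.6 and 24.6 TPM (0.78). Ier5 (0.70), Ier5l (0.68) and the single-strand DNA binding gene Nabp1 (0.55) were also among them. Impact, which restrains the amino-acid sensor GCN2 (0.46), Tppp (0.40) and H2-K2 (0.36) completed the 12 picked in this way.

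Irs2 and Trim63 are targets of FoxO transcription factors, and the FoxO site TGTTTAC was searched for on both strands of their promoters. It is in Trim63 (chr4:134314870-134315119, plus strand), shown with the site in capitals, and not in the window of Irs2 (chr8:11008930-11009179, minus strand), shown with its E-box in capitals.
Irs2: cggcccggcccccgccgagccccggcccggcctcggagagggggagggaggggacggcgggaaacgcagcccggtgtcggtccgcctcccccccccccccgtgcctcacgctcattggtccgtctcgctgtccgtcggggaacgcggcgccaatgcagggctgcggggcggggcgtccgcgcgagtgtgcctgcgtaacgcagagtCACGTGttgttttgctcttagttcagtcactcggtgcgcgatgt
Trim63: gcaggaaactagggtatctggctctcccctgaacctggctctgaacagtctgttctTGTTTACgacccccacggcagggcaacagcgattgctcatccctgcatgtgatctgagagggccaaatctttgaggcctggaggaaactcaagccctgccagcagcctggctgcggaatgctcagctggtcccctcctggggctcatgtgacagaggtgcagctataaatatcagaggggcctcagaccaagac
The FoxO site of Trim63 begins 194 bases before the start; 3.17% of all promoters hold one. Of the 15 genes on the higher side that were called or picked next as above, 11 have a promoter in the table. An E-box is in Per1, Irs2, Klf6 and Otud1 and a FoxO site in Trim63 and Otud1. On the lower side 9 of 13 have a promoter, with an E-box in Insig1 and a FoxO site in Zfp688.

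On the lower side the steps were smaller. Besides Clec14a and Kdr, the 12 genes with the smallest p among those not called included Pcdh12, another endothelial cadherin (1.99, 1.46 and 1.87 TPM in WT, 1.16, 1.24 and 1.25 TPM in P32L; -0.32, adjusted p = 0.270). Lsmem2, a symbol that GENCODE M21 places on a long intergenic non-coding RNA gene, was at 14.9, 15.5 and 11.4 TPM against 9.84, 8.93 and 9.20 TPM (-0.52, adjusted p = 0.242). Insig1, which holds the sterol sensor SCAP in the endoplasmic reticulum, was at 9.32, 7.80 and 9.86 TPM against 6.32, 7.08 and 6.15 TPM (-0.41, adjusted p = 0.219). Scd2, a fatty acid desaturase, was at 21.5, 17.5 and 18.4 TPM against 14.8, 13.9 and 12.04 TPM (-0.47, adjusted p = 0.270). Genes of this side too were picked for having no overlap with WT and no predicted-model symbol. Septin4 (-0.40), Glt28d2 (-0.24), Eid2 (-0.48), Zfp688 (-0.48), Afdn (-0.29) and the mitochondrial prolyl-tRNA synthetase gene Pars2 (-0.52) lay at adjusted p values from 0.185 to 0.242. Of 16 measured genes of sterol and fatty acid synthesis, 10 had a lower and 6 a higher mean (median -0.06), and Insig1, Scd2 and Mvd were below without overlap.

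Immediate-early genes, transcribed within minutes of nerve activity, stretch or dissection, had a higher mean in P32L for every one of the 23 measured. Of these 14 had no overlap with WT and none was called; the median log2 fold change was 0.80, against 0.01 over all genes. Fos was at 11.03, 7.43 and 4.25 TPM in WT and 25.1, 23.9 and 72.2 TPM in P32L (2.16, SE 0.53, adjusted p = 0.278). Its P32L values were set apart by the third mouse, while Nr4a2 had 0.420, 0.477 and 0.179 TPM against 1.42, 1.22 and 2.58 TPM (0.99, adjusted p = 0.213). Klf4, a Krüppel-like factor, was more even, at 21.6, 15.3 and 17.7 TPM against 32.6, 32.4 and 39.6 TPM (0.91, adjusted p = 0.552). At the other end Jun was at 128, 65.9 and 68.5 TPM against 88.8, 83.1 and 98.3 TPM (0.11), with overlap. The mean level of the list, centred over the 12 libraries on the log2 scale, was -0.07, -0.50 and -0.66 in WT and 0.21, 0.34 and 0.76 in P32L. KO mice spread from -0.14 to 0.88 across both ranges. The median against WT was 0.55 in KO and 0.12 in R287Q, fits that share the WT libraries. The cyclic AMP element TGACGTCA (1.55% of promoters) is in Btg2, Dusp1 and Maff among the 19 with a promoter, and the serum response CArG box (1.47%) is in Egr2 and Zfp36.

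**Figure D3:**
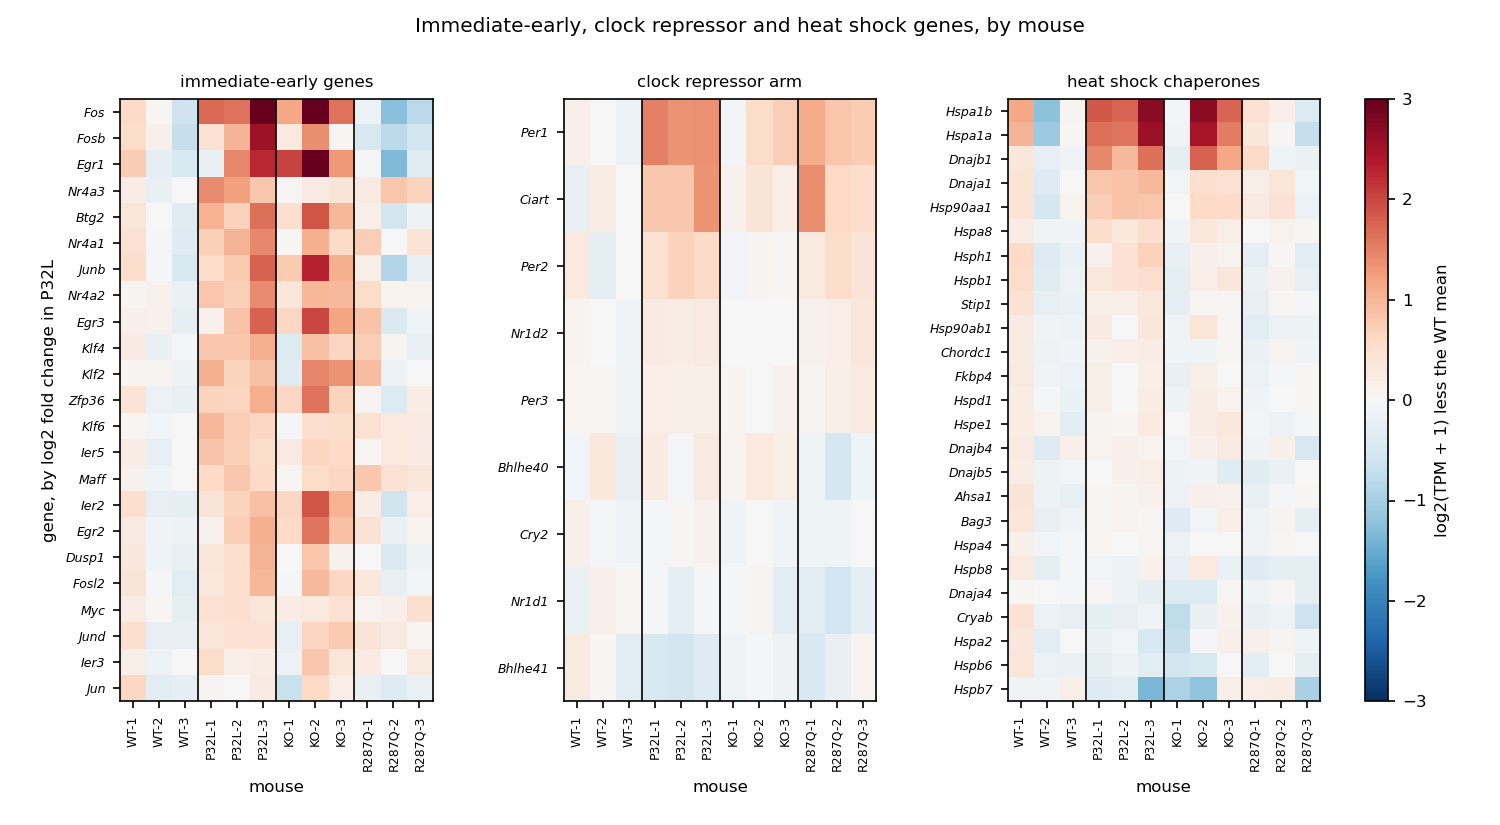
Each cell is the log2(TPM + 1) of 1 gene in 1 mouse less the mean of the 3 WT mice, from blue (lower) to red (higher), with values beyond 3 drawn in the end colour. Immediate-early genes and Hspa1a, Hspa1b and Dnajb1 are mostly red in P32L, KO-2 and KO-3; among clock repressors Per1, Ciart and Per2 are red in P32L and Bhlhe41 is blue.

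Genes that glucocorticoids induce were also higher in mean for all 17 measured of 20 listed, Per1 among them as the member that passed. There were 9 without overlap, and the median was 0.63. Klf15 was at 5.55, 5.93 and 4.54 TPM in WT and 7.98, 7.59 and 7.67 TPM in P32L (0.47, adjusted p = 0.213), and Klf9 was at 19.5, 19.4 and 16.2 TPM against 26.0, 23.9 and 24.5 TPM (0.42, adjusted p = 0.278); both are Krüppel-like factors of the fasted muscle. Glul, glutamine synthetase, was at 86.7, 62.7 and 47.0 TPM against 107, 95.1 and 129 TPM (0.78, adjusted p = 0.322), and Cebpb at 10.1, 8.05 and 6.04 TPM against 17.6, 13.6 and 13.1 TPM (0.81, adjusted p = 0.332). In each of these the P32L mice lay above all WT mice. In contrast, Tsc22d3, a standard reporter of the receptor, was at 12.7, 7.93 and 5.98 TPM against 10.2, 12.3 and 11.1 TPM (0.36, adjusted p = 0.960), and Sgk1 overlapped (0.10). The list level in KO was -0.28, 0.23 and 0.33 and in P32L 0.37, 0.28 and 0.17.

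Atrophy genes showed the same split between a few members and the rest. Of 16 measured, 12 had a higher and 4 a lower mean (median 0.10), and 3 were above without overlap. Beside Trim63 these were Fbxo32, the ligase atrogin-1, at 23.7, 22.4 and 19.2 TPM in WT and 32.2, 27.4 and 31.4 TPM in P32L (0.46, adjusted p = 0.325), and Fbxo30 (0.16, adjusted p = 0.861). Gadd45a, a marker of denervation atrophy, had a log2 fold change of -0.11. The proteasome itself, through which these ligases act, had 24 of 40 subunits with a higher mean, 1 of them without overlap, and a median of 0.01. Among 22 genes of insulin and IGF signalling, 17 had a higher and 5 a lower mean (median 0.07), and Irs1 followed Irs2 at 5.73, 3.84 and 4.28 TPM against 7.15, 6.46 and 6.14 TPM (0.45, adjusted p = 0.758). Of 24 genes of fatty acid use 13 had a higher mean (median 0.00). The 2 without overlap were Pdk4, the kinase that shuts off pyruvate dehydrogenase, at 17.0, 32.0 and 24.2 TPM against 106, 40.0 and 47.4 TPM (1.27, adjusted p = 0.533), and Ucp3 (0.65, adjusted p = 0.510).

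None of the 25 heat shock chaperone genes measured passed the test, and the widest steps were those of stress-induced cytosolic chaperones. Hspa1a was at 27.2, 5.53 and 13.3 TPM in WT and 42.7, 41.1 and 82.2 TPM in P32L (1.95, SE 0.64, adjusted p = 0.497), and its near-identical neighbour Hspa1b, with which it shares reads, at 27.5, 4.39 and 12.4 TPM against 45.0, 41.9 and 82.5 TPM (2.11). Dnajb1, the co-chaperone induced with them, was at 7.96, 4.94 and 5.62 TPM against 18.2, 12.9 and 21.1 TPM (1.36, adjusted p = 0.464), and Dnaja1 at 18.03, 9.92 and 13.1 TPM against 24.5, 24.8 and 27.3 TPM (0.89, adjusted p = 0.223). These did not overlap with WT, nor did Hsp90aa1 (0.81, adjusted p = 0.414) and the constitutive Hspa8 (0.46, adjusted p = 0.362). Of the small heat shock proteins, Hspb7 was at 136, 137 and 168 TPM against 111, 115 and 55.6 TPM (-0.70, adjusted p = 0.932), below WT and lowest in P32L-3. Hspb1 (0.41), Hspb6 (-0.26), Hspb8 (-0.04) and Cryab (-0.21) overlapped. Over these 25 genes, 19 had a higher and 6 a lower mean (median 0.13). Their sum was 2771, 1968 and 2020 TPM in WT and 2449, 2347 and 2592 TPM in P32L. WT-1 thus lay above every P32L mouse in this sum, and the groups overlapped. WT-2 had the lowest Hspa1a of the 12 mice, and KO-2 and KO-3 were at 75.7 and 39.3 TPM.

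In the endoplasmic reticulum and integrated stress lists 19 of 21 had a higher mean, with 1 above and 1 below without overlap (median 0.11). Their sum was 612, 508 and 499 TPM in WT and 683, 605 and 607 TPM in P32L, with WT-1 above P32L-2 and P32L-3. The lowest median over the settings run was 0.02. Chac1, which degrades glutathione and is a target of the factor ATF4, was at 5.35, 23.5 and 11.7 TPM in WT and 84.6, 20.6 and 57.6 TPM in P32L (1.93, SE 0.55, adjusted p = 0.389), overlapping through a single pair of mice. Ddit3, which encodes CHOP, another target of ATF4, went the other way, at 8.95, 6.01 and 6.01 TPM against 5.09, 5.64 and 4.14 TPM (-0.41, adjusted p = 0.656).

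Genes of slow fibres, the oxidative minority of this muscle, had a lower mean in 12 of 13 (median -0.68), and 1 mouse set the size of the difference. Myh7, the slow myosin heavy chain, was at 26.0, 18.6 and 38.7 TPM in WT and 11.7, 19.5 and 0.583 TPM in P32L (-1.89, SE 1.15, adjusted p = 0.956). The list summed to 194, 180 and 292 TPM in WT and 149, 184 and 35.7 TPM in P32L, and without P32L-3 its median was -0.26. The third P32L mouse was also lowest of the P32L group for adipocyte genes, which summed to 1897, 956 and 297 TPM. KO-2 (56.5 TPM) and R287Q-3 (79.1 TPM) had low slow-fibre sums as well. Tnnt1 and Casq2 were the members below without overlap, at -1.36 and -0.31. Fast-fibre genes had a higher mean in 13 of 15 with a median of 0.07 and none without overlap; Myh4 was at 4067, 3157 and 2959 TPM against 3594, 3113 and 4692 TPM, while Myh1 lay lower in mean (-0.59, adjusted p = 0.761).

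Transcripts of the mitochondrial genome differed by class. This genome is transcribed as long precursors that are cut into messenger, transfer and ribosomal RNAs. Of the 22 transfer RNAs, 21 had a lower mean in P32L and 16 lay below WT without overlap (median -0.41); none was called. They summed to 3.79%, 4.13% and 3.90% of the library in WT and 3.15%, 3.37% and 2.92% in P32L, so the groups were apart. The transfer RNA of glycine, mt-Tg, was at 473, 352 and 414 TPM against 287, 279 and 252 TPM (-0.59, adjusted p = 0.396), and that of glutamate, mt-Te, at 7952, 10780 and 8493 TPM against 6995, 6679 and 5892 TPM (-0.47, adjusted p = 0.497). Both ribosomal RNAs were higher without overlap: mt-Rnr1 was at 4670.2, 4392 and 5790.3 TPM against 6249, 7544 and 6068 TPM (0.42, adjusted p = 0.450), and mt-Rnr2 had a log2 fold change of 0.41 (adjusted p = 0.634). The 13 messenger RNAs were spread about 0 (median -0.01). In KO the transfer RNAs made up 3.85%, 3.08% and 3.49%, and in R287Q 3.59%, 3.83% and 4.26%. Transfer RNA genes are 59 to 75 bases long, so in a unit scaled by length a small number of reads weighs heavily.

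**Figure D4:**
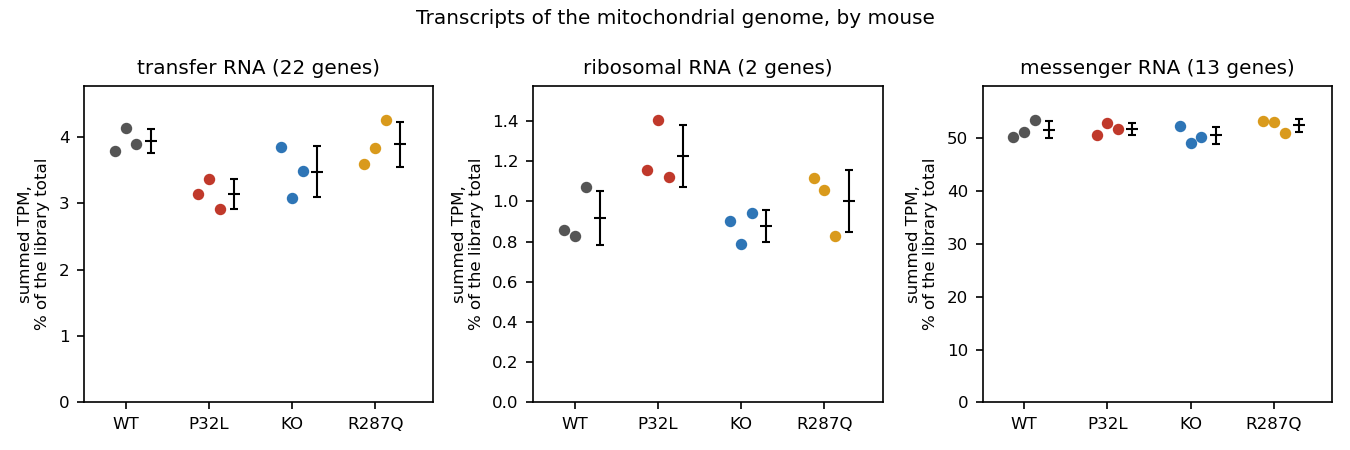
Points are the summed TPM of each class of mitochondrial transcript as a percentage of the library, per mouse, with the mean and SD of each group of 3. Transfer RNA lies between 2.92% and 3.37% in P32L and between 3.79% and 4.13% in WT, ribosomal RNA lies higher in P32L, and messenger RNA overlaps.

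Nuclear genes of the respiratory chain differed by small steps, and the groups overlapped. Complex I had 31 of 36 subunits with a lower mean (median -0.07) and complexes II to V 36 of 40 (median -0.09); none was without overlap. Complex I summed to 2297, 2168 and 1784 TPM in WT and 2141, 1904 and 1898 TPM in P32L, and complexes II to V to 9100, 8486 and 6860 TPM against 8083, 7201 and 7463 TPM. WT-3 thus lay below every P32L mouse in both sums, and the lower means rested on WT-1 and WT-2. Without WT-1 the medians were 0.0024 and -0.01, and without WT-3 they were -0.17 and -0.18. Of glycolysis and glycogen genes 16 of 18 were lower in mean (median -0.05), but their sums interleaved, at 15457, 12966 and 11900 TPM in WT and 13975, 11646 and 13226 TPM in P32L. Their median turned to 0.04 without WT-1 and to 0.01 without P32L-2. Cytosolic ribosomal proteins were spread, with 53 of 85 lower in mean (median -0.02).

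The pathway that Gmppb feeds showed no called gene, where 0.0437% of all genes were called. In GDP-mannose and dolichol-mannose supply, 5 of 14 measured had a higher and 9 a lower mean (median -0.04). Gmppa, the regulatory partner of Gmppb, was at 7.79, 7.71 and 6.82 TPM in WT and 8.29, 6.19 and 7.47 TPM in P32L (-0.03). Pmm2, which makes the mannose 1-phosphate that Gmppb uses, was at 1.95, 1.54 and 1.66 TPM against 1.68, 1.59 and 1.44 TPM (-0.08), and Mpi (-0.16) and Pmm1 (-0.04) overlapped too. Downstream, the synthase subunits Dpm1, Dpm2 and Dpm3, which pass mannose to dolichol, had log2 fold changes of -0.34, 0.08 and 0.02. Nus1, needed to make dolichol, was the member without overlap, at 5.54, 4.88 and 5.22 TPM against 6.33, 6.47 and 5.99 TPM (0.23, adjusted p = 0.765).

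The receivers of that mannose were equally close to WT. Dystroglycan and the enzymes of its O-mannosyl chain had 6 of 9 measured with a higher mean, 0 without overlap and a median of 0.01. Dag1, dystroglycan itself, was at 13.9, 11.0 and 10.2 TPM in WT and 11.3, 10.5 and 13.3 TPM in P32L (0.01, SE 0.13), and Pomt1, which adds the first mannose, had 0.01 (SE 0.08). B4gat1, which primes the laminin-binding repeat, had the widest step, at 28.1, 16.6 and 11.4 TPM against 7.87, 12.2 and 16.5 TPM (-0.55, SE 0.32, adjusted p = 0.932), with overlap. The N-glycan list had 11 of 20 with a higher mean and a median of 0.00, with Mogs at 0.19 its widest. Of the dystrophin complex 7 of 8 had a lower mean and a median of -0.07, with Nos1 at -0.12. Basal lamina and integrin genes had a median of -0.01 over 12. At the neuromuscular junction, Chrnb1, a subunit of the acetylcholine receptor, was at 5.55, 6.62 and 5.33 TPM against 5.10, 4.52 and 3.97 TPM (-0.31, adjusted p = 0.634), below WT without overlap, while the other 6 of the 7 measured overlapped.

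Markers of regeneration and of other cells gave no call besides Aplnr. Myog, the differentiation factor of myoblasts, was at 3.08, 1.98 and 3.12 TPM in WT and 3.66, 5.54 and 4.56 TPM in P32L (0.59, adjusted p = 0.587), and the 7 measured of that list had a median of 0.05. Sat1, which acetylates polyamines for breakdown, was at 18.8, 16.8 and 15.3 TPM against 24.1, 23.6 and 22.5 TPM (0.45, adjusted p = 0.217), and Odc1, which starts their synthesis, at 65.8, 64.9 and 69.8 TPM against 82.1, 72.7 and 74.1 TPM (0.19, adjusted p = 0.823); both were above WT without overlap. All 12 macrophage markers had a higher mean (median 0.27) and none was free of overlap, since their sum was 169, 52.6 and 121 TPM in WT and 149.7, 144 and 97.5 TPM in P32L. WT-2 was the low library, and without it the median was -0.10. Of neutrophil and eosinophil markers all 5 measured had a higher mean, and Ear2, an eosinophil ribonuclease, was above WT, at 2.23, 0.835 and 2.25 TPM against 3.62, 4.28 and 3.75 TPM (0.86, adjusted p = 0.322). Schwann cell markers were higher in mean in 7 of 7 (median 0.33), adipocyte markers in 7 of 8 (0.31), erythroid in 4 of 4 (0.23), fibro-adipogenic in 10 of 15 (0.00) and tenocyte markers in 0 of 6 (-0.43), all with overlap. Single mice moved these medians. The tenocyte sum was 91.99, 105 and 37.8 TPM in WT and 63.2, 48.1 and 39.1 TPM in P32L, and the median ran from -0.84 without WT-3 to -0.20 without WT-1. The Schwann cell sum was 23.2, 60.3 and 25.6 TPM against 71.0, 39.4 and 39.2 TPM, and the median ran from 0.13 without P32L-1 to 0.63 without WT-2. The adipocyte median was -0.27 without P32L-1, and the erythroid median -0.07 without WT-2. The 1 epidermal marker measured had 0.11, and none of 10 lymphocyte markers reached 1 TPM on average.

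**Figure D5:**
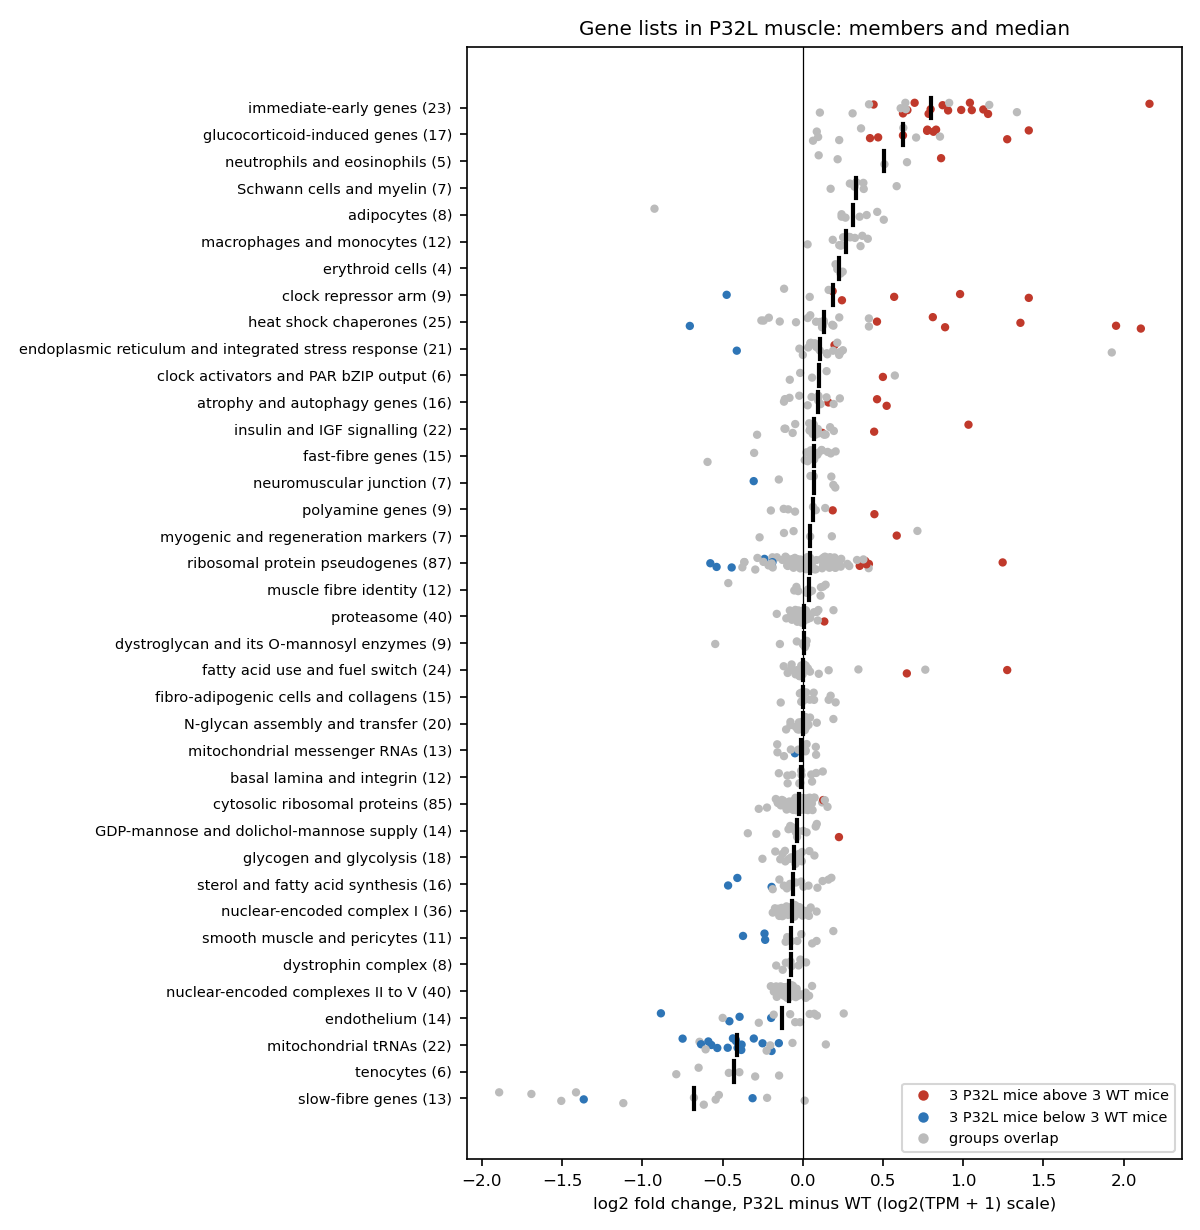
Each point is the log2 fold change of 1 gene, P32L minus WT, in the list named at the left with its number of genes measured; bars are list medians, and red or blue marks genes whose 3 P32L mice lay all above or all below the 3 WT mice. Immediate-early (0.80) and glucocorticoid-induced genes (0.63) have the highest medians and slow-fibre genes (-0.68) the lowest, while GDP-mannose, dystroglycan and N-glycan lists sit at 0.

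Set against the other lines, P32L differed from KO in 2 of 9152 genes (0.0219%), by a contrast that shares the P32L libraries with the one above. Cyp26b1, which degrades retinoic acid, had 1.31, 0.906 and 0.435 TPM in P32L, while KO muscle had 6.36, 5.65 and 12.7 TPM (-2.24, SE 0.24, limma adjusted p = 0.00556). WT mice had 0.776, 1.03 and 0.906 TPM, so the high group is KO. Rpl26-ps6 was higher in P32L than in KO by 1.39 (SE 0.15, adjusted p = 0.00556). With the replicate block both passed again, each at an adjusted p of 0.0456. Irs2 (0.92, adjusted p = 0.143) and Per1 (0.999, adjusted p = 0.174) did not pass against KO, and neither did Impact (0.43), Nr4a3 (0.93) and Tmem106b (0.39). On the lower side Tmem160 (-0.85), Scd2 (-0.56), Insig1 (-0.47) and Ppp1ccb (-0.41), picked among genes without overlap with KO, did not pass.

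Against R287Q 0 of 9152 genes (0%) passed by limma, while 610 (6.67%) had an unadjusted p under 0.05; with the replicate block these counts were 0 and 313. The gene nearest the threshold was Trdj2, a joining segment of a T-cell receptor locus, at 2.78, 2.80 and 1.75 TPM in P32L muscle and listed at 0, 0 and 0.549 TPM in R287Q (1.56, adjusted p = 0.0746). Trdj2 is 59 bases long, so a small number of reads weighs heavily in its TPM. Irs2 (0.87, adjusted p = 0.196), Fos (2.91, adjusted p = 0.196), Socs3 (1.37, adjusted p = 0.203) and Tppp (0.42, adjusted p = 0.196) followed on the higher side. Fos had 25.1, 23.9 and 72.2 TPM in P32L against 6.17, 2.38 and 3.62 TPM in R287Q, without overlap. On the lower side Aplnr (-0.66) and Cxcr4 (-0.62) lay at an adjusted p of 0.196, and Tfrc, the transferrin receptor (-0.54), Lbh (-0.49) and mt-Tg (-0.82) at 0.203.

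Genes near the edited gene went both ways. Of 100 genes measured within 5 Mb of the start of Gmppb on chromosome 9, 53 had a higher and 47 a lower mean (median 0.01), 2 lay above and 8 below WT without overlap, and 0 were called; 385 other genes of the chromosome had 17 above, 21 below and 1 call, Rpl26-ps6. Among all 8918 placed genes, 489 lay above, 322 below and 4 were called. At that rate 0 calls in 100 genes says little about the region. Lsmem2, described above, had the smallest p of the window. Cish, a cytokine-induced inhibitor related to Socs3, was at 3.05 ± 2.07 TPM in WT and 16.1 ± 14.5 TPM in P32L (1.87, SE 0.62, adjusted p = 0.497), with overlap. Tcta (-0.30, adjusted p = 0.507) and Uba7 (-0.28, adjusted p = 0.634) were below WT without overlap.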

How the data were processed

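Gene expression was measured by RNA sequencing of gastrocnemius muscle from 12 mice, 3 per group; the labels' protocols give 100 mg of frozen tissue per mouse, Trizol extraction and 2 µg of RNA for each NEBNext Ultra library. Per the submitters' processing notes the tools included FastQC, HISAT2, StringTie and DESeq2 and the build was mm10; no version or annotation is given in the sources. The authors deposited 1 table of log2 values per gene symbol and library, whose back-transformed values sum to between 997591 and 998739 per library, so they were read as log2(TPM + 1); the design had assumed TPM, and its pseudocount of 1 was already in the values. TPM keeps no depth, so no counting interval could be set. Between 23.9% and 30.3% of values per library were listed at 0. The highest share was that of P32L-3, while the other P32L and WT libraries lay between 25.0% and 26.9%.

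The 9152 genes that averaged 1 TPM or more across the libraries were fitted with limma 3.58.1 in R 4.3.3 on group means with an intensity trend, 8 residual and 3.11 prior degrees of freedom, and contrasts of P32L with WT, KO and R287Q; calls are at a Benjamini-Hochberg adjusted p under 0.05, two-sided. The procedure was tested on simulated data with independent libraries. These lack the replicate-number imprint of the deposited values, so that test cannot show how the fit behaves under it. The members, the 28 pathway and 11 cell type lists and the named genes were chosen with earlier results of these data known. The named genes were Gmppb, every called gene, the 12 genes per side with the smallest p that were not called, had no overlap and are no predicted model, up to 4 members of each list by p, host or parent genes, and 5 per side against KO and R287Q; members beyond these were named after their values were seen. Nothing in the labels says more than that replicates are separate mice. The p-values measure the spread between them in the deposited values, which hold almost no variation between replicate numbers. Without the block they may therefore understate the spread between mice.

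Replicate numbers were checked for pairing: deviations of same-numbered WT and P32L libraries from their group means correlated at -0.427, -0.427 and -0.446, so the bar for pairing, a correlation over 0.1 in every pair, was not met. The mean over the 4 groups was nearly equal for the 3 numbers in most genes, which by itself makes such correlations negative, so this check cannot tell whether the numbers pair the mice. The fit without a block is the one fixed in the design. The fit with a block is given beside it for the calls and the genes nearest the threshold. Of the symbols, 29333 (96.2%) were placed with GENCODE M21 (mm10). Promoter windows of 250 bases and their motifs came from RefSeq (GRCm38.p6). Alternatives were other pseudocounts, filters, scalings, variance models, libraries left out and a replicate block; blocks with another scaling were added after seeing the data. Some items are not reported here.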

Additional observations from a re-analysis of the deposited data

Results flagged for a closer look

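Cyp26b1 and Rpl26-ps6 stood out because P32L differed from KO, another Gmppb line, by a test of that difference. The log2 fold change, P32L minus KO, was -2.24 for Cyp26b1 and 1.39 for Rpl26-ps6, each at a limma adjusted p of 0.00556 and, with the replicate block, of 0.0456. All 3 P32L mice lay below all 3 KO mice for Cyp26b1 and above them for Rpl26-ps6.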

How the results depend on the processing

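The number of genes called in P32L against WT (4) depended on the setting. It was 1 with only the 6 P32L and WT libraries, 0 with a pseudocount of 0.01 or with mitochondrial genes and their copies left out, 13 with no filter, 23 after median-of-ratios scaling and 28 after quantile normalization; leaving out each replicate gave 0 to 1. With the replicate block it was 0, also with the block joined to median-of-ratios scaling (0) or quantile normalization (0). Against KO, the count of 2 became 21 with no filter, 0 at a mean of at least 5 TPM, where both genes fall under the filter and were not tested, and 0 with the replicate block and either scaling; it stayed 2 with the replicate block alone and without each replicate. Against R287Q, the count of 0 became 1 with a pseudocount of 0.1 or 0.01, 24 with no filter, and 1 after median-of-ratios or quantile scaling. The cause of the other changes was not tested, except that fewer libraries or degrees of freedom are part of the settings that leave out a replicate or add the block.

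The fold changes moved less than the calls: over all settings Per1 ran from 1.32 to 1.64, Aplnr from -0.97 to -0.82, Rpl26-ps6 from 1.11 to 1.99 and Gm17024 from 0.80 to 1.36, with adjusted p values from 0.0231 to 0.309. The replicate block changed no other call. The Gmppb difference ran from -0.166 to 0.0494 over the libraries left out and reversed sign, to 0.0494, without WT replicate 1. The median of all genes stayed between -0.0225 and 0.0565 in every setting run. Of list medians, 765 recomputed values moved by less than the replicate spread and 9 by more. This tally says little about stability. Settings that change only the variance model or add the block cannot move a median, and the spread can be wide. Macrophage medians from -0.10 to 0.52 and adipocyte medians from -0.27 to 1.11 counted as 0 moved. Immediate-early, glucocorticoid, clock, heat shock, slow-fibre, endothelial, tenocyte and mitochondrial transfer RNA medians kept their sign in all settings run. Macrophage, adipocyte, erythroid and neutrophil medians each changed sign in 1 setting, and lists with medians near 0 in up to 10. Depth is unknown, so what it limits cannot be given.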

Other observations

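Some genes outside the lists with a log2 fold change over 1 and a known product were looked up after their values were seen, and none passed limma. Slc25a25, a mitochondrial carrier of ATP and magnesium, was at 2.33 ± 0.829 TPM in WT and 8.35 ± 1.59 TPM in P32L (SD, n = 3; 1.51, adjusted p = 0.414). Sik1, a kinase induced by cyclic AMP, was at 3.33 ± 1.13 against 8.58 ± 3.37 TPM (1.13, adjusted p = 0.497). Apold1, an endothelial gene of the immediate-early kind, was at 3.16 ± 1.14 against 9.16 ± 4.57 TPM (1.23, adjusted p = 0.689), the opposite direction to Aplnr. In all of these the 3 P32L mice lay above the 3 WT mice. Actc1, the cardiac actin that developing muscle also makes, overlapped (54.6 ± 35.1 against 99.2 ± 25.6 TPM). On the lower side the non-coding Gm42417 was listed at 0 in every P32L mouse and at 8.02 ± 7.02 TPM in WT.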
